A study of Mus musculus with 8 samples.

Results

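The genes of mitochondrial and peroxisomal fatty acid oxidation were examined in primary mouse tendon stem cells (TSCs), as 36 genes chosen by symbol from a table of 19301 genes. All 36 were found in the table. The TSCs were cultured for 4 days either in low glucose medium (LG, 5.5 mM glucose with the solvent DMSO) or in high fat, high glucose medium (HFHG, a higher glucose concentration with 300 µM palmitic acid, a saturated long-chain fatty acid), and mRNA of 4 biological replicates per group was sequenced. Both groups came from C57BL/6J mice, the strain that the study used, and neither group carried a genetic change. The TSCs were grown from collagenase-digested patellar tendon, so they are a plated primary culture and not a sorted clone, and the labels do not say whether the replicates came from separate animals. The p-values therefore measure the spread between these libraries, which may be technical in part. Glucose and palmitic acid were changed together, so their effects cannot be told apart, and a culture with palmitic acid or with high glucose alone was not analysed here.

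Long-chain fatty acids are activated to acyl-CoA, passed to carnitine at the outer mitochondrial membrane, carried across the inner membrane and returned to CoA in the matrix. There each round of beta-oxidation consists of dehydrogenation, hydration, a further dehydrogenation and thiolysis, which releases acetyl-CoA, and the electrons of the acyl-CoA dehydrogenases reach the respiratory chain through the electron transfer flavoprotein. Malonyl-CoA, the building block of fatty acid synthesis, inhibits the entry step, and peroxisomes shorten very long and branched chains before the mitochondria complete their oxidation. Nuclear receptors of the PPAR family are known to bind fatty acids and to drive many of these genes in liver, heart and muscle.

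Promoters of Cpt1a and Cpt2, which are among the 3 genes with the largest changes, and the interval between Hadha and Hadhb are shown because nuclear receptors known to act on such genes bind copies of the letters AGGTCA. The windows come from RefSeq (GRCm38.p6) and hold 250 bases before and 50 bases after the start site, and 29 of the 36 genes had a window. The stretches printed here are the parts outside every exon of GENCODE M21 (GRCm38), and capitals mark AGGTCA read on the reverse strand. The Cpt1a stretch is chr19:3323051-3323284 on the plus strand, inside an intron of a longer annotated Cpt1a transcript, and its match lies 94 bases before the start site. The Cpt2 stretch is chr4:107923611-107923839 on the minus strand and has no match. The third stretch, chr5:30155163-30155247, is the whole interval of 85 bases between the annotated ends of Hadha and Hadhb, the genes of the alpha and beta subunits of one enzyme, which are transcribed away from each other, and it was chosen after the values were seen. Cpt1b had no window.
Cpt1a: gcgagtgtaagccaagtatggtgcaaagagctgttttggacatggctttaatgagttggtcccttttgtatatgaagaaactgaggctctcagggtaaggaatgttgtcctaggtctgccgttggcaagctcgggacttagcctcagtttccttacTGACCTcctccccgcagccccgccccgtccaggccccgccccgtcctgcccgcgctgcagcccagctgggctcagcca
Cpt2: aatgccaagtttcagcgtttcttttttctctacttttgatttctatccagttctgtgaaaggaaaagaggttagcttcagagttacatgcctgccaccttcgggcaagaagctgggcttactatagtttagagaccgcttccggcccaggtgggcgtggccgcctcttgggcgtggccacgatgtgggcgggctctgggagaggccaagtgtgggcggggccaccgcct
Hadha and Hadhb: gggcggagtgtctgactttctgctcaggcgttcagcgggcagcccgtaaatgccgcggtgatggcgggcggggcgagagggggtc
AGGTCA on either strand was found in the windows of 5 of the 29 genes (17.2%), namely Acadm, Acadvl, Cpt1a, Cpt1c and Echs1, and in 16.3% of all 32851 windows. The share was thus close to that of all promoters, and among the 5 are Cpt1a, which had the highest fold change, and Echs1, which was lower in HFHG. A pair of AGGTCA copies in the same direction with 1 base between them was in none of the 29 windows and in 0.0396% of all windows, and TCAAGGTCA was in none of the 29 and in 0.423% of all. A pair of AGGTCA copies and TCAAGGTCA both contain AGGTCA, so these searches overlap.

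The libraries held 35385644 to 37362725 reads in HFHG and 34308108 to 36308533 in LG, recovered from the deposited FPKM (fragments of a gene, scaled for gene length and library size). LG replicate 4 stood apart from the other LG libraries, since the variance between libraries was 7.47 to 10.7 times the counting variance in its pairs and 3.38 to 3.85 times in the other LG pairs. The tendon and mesenchymal markers were detected in each library, although the defining tendon genes Scx (0.983 to 2.88 FPKM) and Tnmd (0.22 to 1.19 FPKM) were low beside Thbs4 and Col1a1. Of 9 tendon markers, 7 were higher in HFHG (77.8%, beside 34.0% of all genes tested) and 1, Mkx, was lower. The sum of the 9 was 2481 to 2533 FPKM in HFHG and 1599 to 1635 FPKM in LG. Of 5 mesenchymal surface markers, 4 were higher, and their sum was 1033 to 1063 FPKM in HFHG and 674 to 704 FPKM in LG. The median log2 fold changes of these lists were 0.61 and 0.60. Of 11 macrophage markers, 10 were tested and 8 were lower in HFHG, and their summed level was 1765 to 1815 FPKM in HFHG and 1954 to 2036 FPKM in LG, most of it Lyz2. In a bulk sample, fewer cells of a type and less RNA per cell cannot be told apart. The adipocyte genes Adipoq, Plin1, Lep, Cidec and Retn were at or near 0 in each library (at most 0.228 FPKM), while Fabp4, a fatty acid carrier that macrophages also make, was 66.3 to 72.8 FPKM in HFHG and 23.3 to 29.3 FPKM in LG. Cebpa, also on the adipocyte list, was clearly expressed, with 11.4 to 13.9 FPKM in HFHG and 11.4 to 12.6 FPKM in LG, and was not called. Summed skeletal muscle markers were 1.30 to 2.81 FPKM in HFHG and 3.84 to 5.13 FPKM in LG. The part of these cell type differences in the changes below was not tested.

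Most of the fatty acid oxidation genes were higher in HFHG, by moderate amounts. Of the 36 genes, 35 passed the filter of at least 0.5 FPKM in at least 4 libraries, 27 were higher, 3 (Crat, Echs1 and Hsd17b10) were lower, and 5 (Acad9, Acad10, Decr2, Eci1 and Acaa1a) were not called at an adjusted p below 0.05 (limma on log2(FPKM + 0.1), Benjamini-Hochberg over the 11710 genes tested). Over all genes tested, 34.0% were higher and 30.8% were lower by the same rule, against 77.1% and 8.57% of the 35. The median log2 fold change was 0.36 over the 35 genes and 0.02 over all genes tested. Cpt1a, Cpt1b and Cpt2 were more than 2-fold higher, that is with a log2 fold change above 1 and an unadjusted p below 0.05, which 3.68% of all genes met. None of the 35 was more than 2-fold lower (1.65% of all genes; 3 of the 35 were lower at an adjusted p below 0.05 by limma). The values of the 8 libraries did not overlap between the groups for 29 of the 35 genes, against 59.2% of all genes tested.

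**Figure D1:**
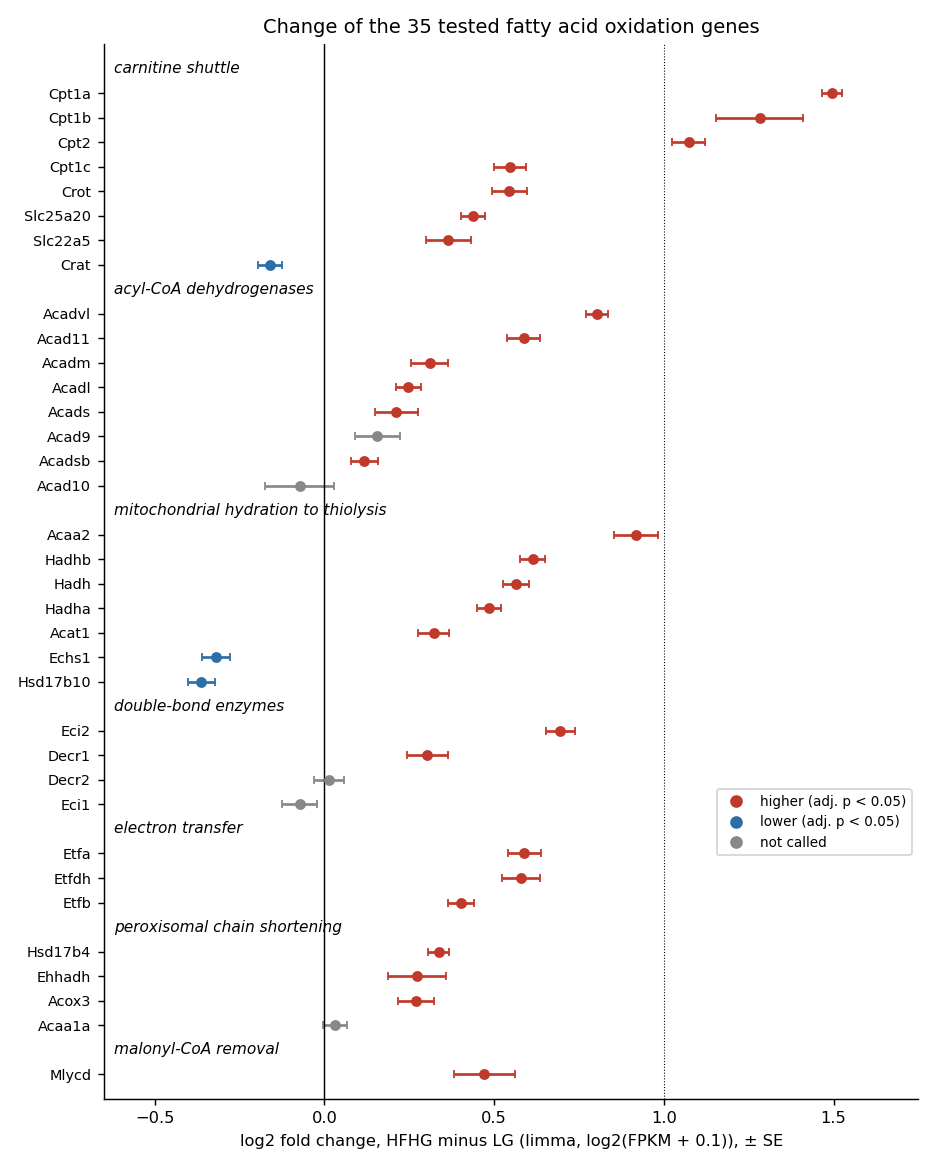
Each point is the log2 fold change (HFHG minus LG, horizontal axis) of 1 of the 35 tested genes with its standard error, ordered by role, with a dotted line at 1. The points above 1 are Cpt1a, Cpt1b and Cpt2, and the 3 genes called lower are Crat, Echs1 and Hsd17b10.

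Cpt1b passed the filter only through the HFHG group, so that it could only be tested because it was high there. Without it, 26 of 34 genes were higher and 3 were lower. The counts above of genes more than 2-fold higher and of genes without overlap both include Cpt1b. Without LG replicate 4, 26 of the 35 were higher and 3 were lower, with a median of 0.348. The summed FPKM of the 36 genes was 869 ± 10.2 in HFHG and 658 ± 11.5 in LG (SD, n = 4), a ratio of 1.32, and it ranged from 857 to 881 in HFHG and from 651 to 675 in LG. Their share of all reads was 0.220% ± 0.00232 in HFHG and 0.157% ± 0.00147 in LG (SD, n = 4).

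The carnitine shuttle held the largest changes. Of its 8 genes, 7 were higher in HFHG, 1 was lower, and none had overlapping groups. The counts of 7 higher and of no overlap include Cpt1b, which passed the filter only through the HFHG group. Among all genes tested, 34.0% were higher, 30.8% were lower and 59.2% had groups without overlap. Cpt1a (NCBI gene 12894, chr19:3322334-3385733, plus strand) encodes the carnitine palmitoyltransferase of liver and most other tissues, the step that malonyl-CoA inhibits. Cpt1a was 56.5, 57.9, 59.1 and 55.5 FPKM in the HFHG libraries and 20.2, 20.2, 20.5 and 20.2 FPKM in the LG libraries. The lowest HFHG library was thus far above the highest LG library, and the SD over the LG libraries was only 0.142 FPKM. The log2 fold change was 1.49 ± 0.03 (SE, adjusted p = 5.34e-13 by limma), a 2.82-fold difference resting on 41920 reads in HFHG and 14462 in LG.

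Cpt1b (NCBI gene 12895, chr15:89416405-89425863, minus strand) is the muscle and heart isoform. Its level was 1.18, 1.07, 1.34 and 1.07 FPKM in HFHG and 0.393, 0.495, 0.429 and 0.369 FPKM in LG. These are low values, from 110 to 140 reads per HFHG library and 38 to 52 per LG library, yet the groups did not overlap. The log2 fold change was 1.28 ± 0.13 (SE, adjusted p = 2.05e-06 by limma), and with 1 FPKM added in place of 0.1 it was 0.61, under the 2-fold line. Because Cpt1b passed the filter only through the HFHG group, its p-value and its lack of overlap are a description. Another protein-coding gene model, Gm44502, covers the whole Cpt1b locus on the same strand and is not in the table. Of the 11 skeletal muscle markers in the table, 10 were below 1 FPKM in every library. Acta1 was 0.61 to 1.22 FPKM in HFHG and 3.05 to 3.898 FPKM in LG, whereas Tnnt3 was 0.285 to 0.846 FPKM in HFHG and 0.0471 to 0.224 FPKM in LG, and the part of muscle cells in the Cpt1b level was not tested.

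Cpt1c (NCBI gene 78070, chr7:44959372-44974851, minus strand) is known from neurons, where it lies in the endoplasmic reticulum and has little transferase activity. It was well expressed in these TSCs, with 26.3, 26.3, 24.8 and 24.4 FPKM in HFHG and 16.8, 17.4, 16.5 and 19.0 FPKM in LG. The groups did not overlap, and LG replicate 4 was the highest LG library. The log2 fold change was 0.55 ± 0.05 (SE, adjusted p = 5.12e-07 by limma).

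The order of the 3 isoforms per gene length was the same in both groups, with Cpt1a first, Cpt1c next and Cpt1b far below. In LG, Cpt1a was only slightly above Cpt1c, without overlap of their values, and Cpt1a made up 51.0% to 54.7% of the summed Cpt1 FPKM and Cpt1c 44.2% to 48.1%. In HFHG, Cpt1a made up 67.2% to 69.3% and Cpt1c 29.1% to 31.4%. Cpt1b was 0.933% to 1.58% of the sum in the 8 libraries.

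**Figure D2:**
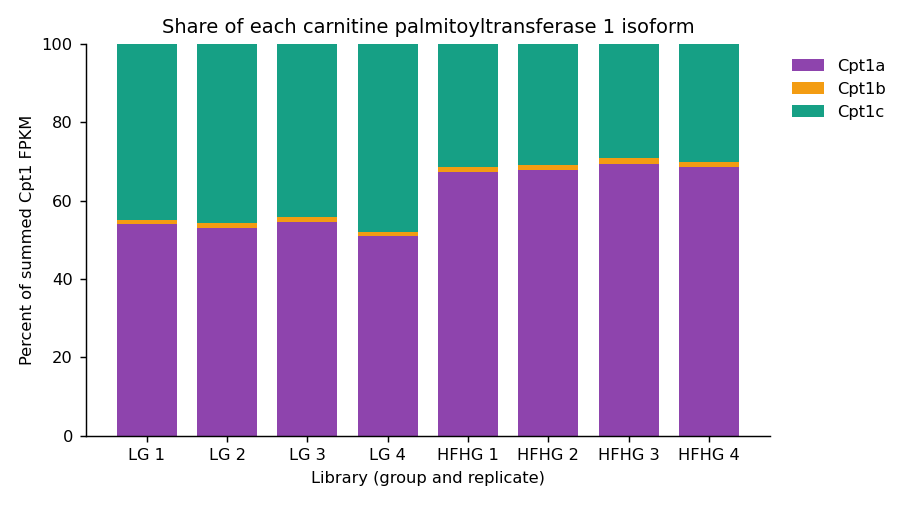
Each bar is 1 library, and its colours give the percent of the summed Cpt1 FPKM (vertical axis, from 0) that each isoform made up. The Cpt1a part is 51.0% to 54.7% in the LG bars and 67.2% to 69.3% in the HFHG bars, and the Cpt1b part is a thin band in each.

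Downstream of Cpt1, the carrier Slc25a20 exchanges acylcarnitine for carnitine across the inner membrane, and Cpt2 (NCBI gene 12896, chr4:107903981-107923610, minus strand) forms acyl-CoA again in the matrix. Cpt2 was 22.3, 21.9, 20.8 and 21.0 FPKM in HFHG and 9.77, 10.1, 9.68 and 11.2 FPKM in LG. The HFHG libraries were all about the same and well above the LG libraries, of which replicate 4 was the highest. The log2 fold change of Cpt2 was 1.07 ± 0.05 (SE, adjusted p = 1.14e-09 by limma), just above the 2-fold line, and the gene next below that line was Acaa2 at 0.92. Slc25a20 was 21.2 to 22.8 FPKM in HFHG and 15.8 to 16.4 FPKM in LG, with a log2 fold change of 0.44 ± 0.04 (SE).

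Slc22a5, the plasma membrane importer of carnitine, was 4.98 to 5.49 FPKM in HFHG and 3.75 to 4.51 FPKM in LG, with a log2 fold change of 0.36 ± 0.07 (SE). Crot, the peroxisomal carnitine octanoyltransferase that exports shortened chains, was 12.8 to 14.5 FPKM in HFHG and 8.67 to 9.88 FPKM in LG, with a log2 fold change of 0.54 ± 0.05 (SE). Crat, carnitine acetyltransferase, which buffers acetyl-CoA rather than importing long chains, was the gene of the shuttle that fell. Its level was 10.997, 11.21, 10.97 and 11.04 FPKM in HFHG and 12.6, 12.3, 12.3 and 12.3 FPKM in LG, and the groups did not overlap although the log2 fold change was only -0.16 ± 0.04 (SE, adjusted p = 0.00172 by limma).

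**Figure D3:**
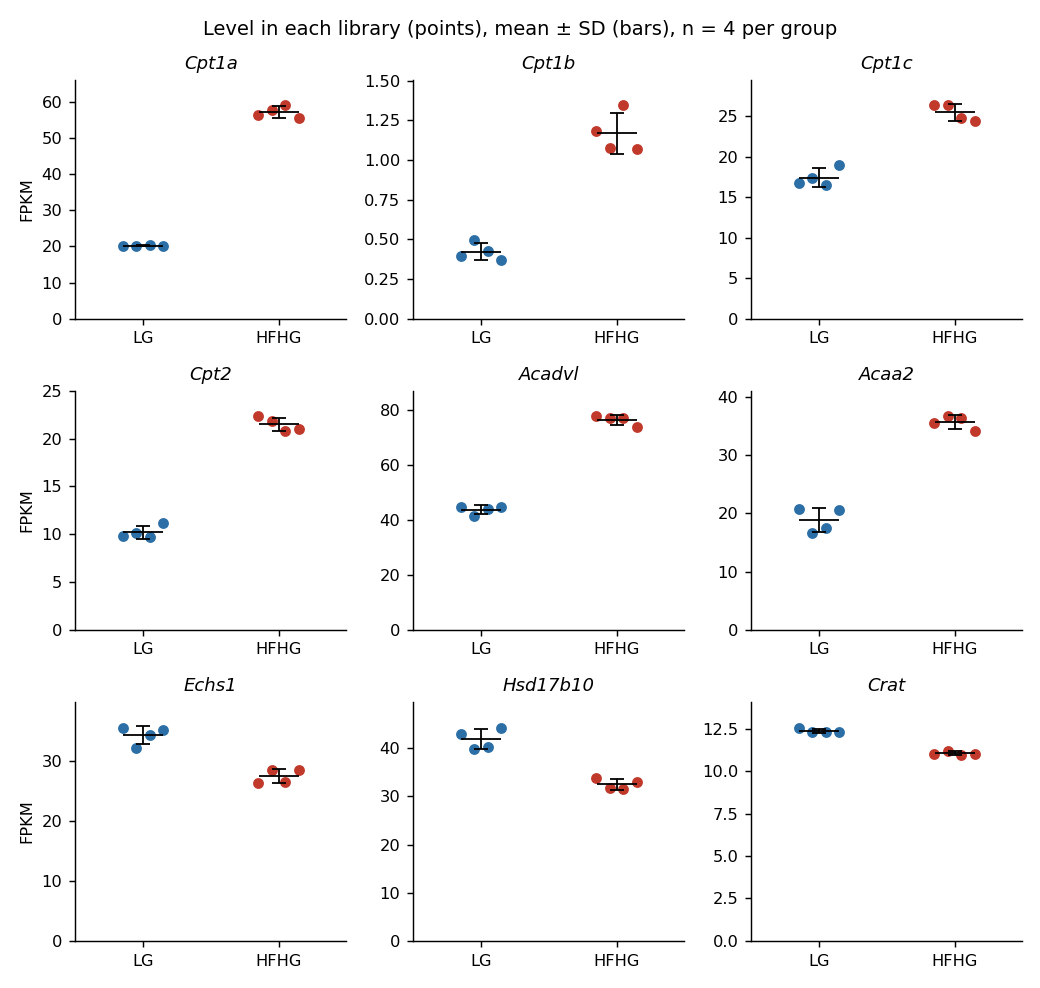
Each panel shows the FPKM (vertical axis, from 0) of 1 gene in the 4 LG and 4 HFHG libraries as points, with the mean and SD as bars. The HFHG points lie above the LG points for Cpt1a, Cpt1b, Cpt1c, Cpt2, Acadvl and Acaa2 and below them for Echs1, Hsd17b10 and Crat, without overlap.

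The acyl-CoA dehydrogenases make the first double bond and differ in the chain length that they accept. Of the 8 genes, 6 were higher in HFHG, none was lower and 2 were not called, and 5 had groups without overlap. The share of genes higher was 75.0%, beside 34.0% of all genes tested. Groups without overlap were found for 59.2% of all genes tested, so the 5 of 8 are near the general share. Acadvl (NCBI gene 11370, chr11:70010183-70015411, minus strand), the very long chain enzyme bound to the inner membrane, was 77.7, 77.0, 77.2 and 73.8 FPKM in HFHG and 44.8, 41.5, 44.1 and 44.6 FPKM in LG. Its groups were far apart, and its log2 fold change was 0.80 ± 0.03 (SE, adjusted p = 2.59e-10 by limma). The Acadvl gene overlaps Dvl2 on the other strand over 2119 bases, and whether the counting used strand is not given in the sources used here.

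Acad11, which acts on long and very long chains including hydroxylated ones, was 15.0, 14.7, 14.4 and 14.5 FPKM in HFHG and 9.77, 9.62, 10.5 and 9.02 FPKM in LG. These groups did not overlap, and the log2 fold change was 0.59 ± 0.05 (SE, adjusted p = 3.06e-07 by limma). Acad11 overlaps the gene model Gm28305 on the same strand, which is not in the table. Acadl, Acadm and Acads changed less than Acadvl and Acad11, and not in the order of their chain lengths. Acadl (long chain) was 44.6 to 46.9 FPKM in HFHG and 36.02 to 40.7 in LG, a log2 fold change of 0.25 ± 0.04 (SE). Acadm (medium chain) was 15.6 to 18.4 FPKM in HFHG and 13.2 to 15.0 in LG, a log2 fold change of 0.31 ± 0.05 (SE). Acads (short chain) had a log2 fold change of 0.21 ± 0.06 (SE, adjusted p = 0.0104 by limma), but its groups overlapped, since the lowest HFHG library had 15.7 FPKM and LG replicate 4 had 15.9 FPKM.

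Acadsb, which serves branched short chains and isoleucine breakdown, differed by 0.12 ± 0.04 on the log2 scale (SE, adjusted p = 0.0234 by limma), and this call was lost without LG replicate 4 (adjusted p = 0.0534). It was also lost without HFHG replicate 1 (adjusted p = 0.0713) and without HFHG replicate 2 (adjusted p = 0.0576). Acad9, known as an assembly factor of respiratory complex I as well as a dehydrogenase, had a log2 difference of 0.16 ± 0.07 (SE, adjusted p = 0.0544 by limma). It passed the threshold without LG replicate 1 (adjusted p = 0.0205), without LG replicate 2 (adjusted p = 0.0409), after rescaling to the same sum (adjusted p = 0.0194) and with voom on recovered reads (adjusted p = 0.0409). Acad10 was at 1.76 to 2.46 FPKM in HFHG and 1.96 to 2.32 FPKM in LG, with overlapping groups and a log2 difference of -0.07 ± 0.10 (SE).

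Ratios between genes in the same library, which do not depend on the scaling of the libraries, were compared for 16 pairs chosen after the values were seen, by exact permutation of the libraries (two-sided, 70 arrangements, smallest possible p = 0.0286). The ratio of Acadvl to Acadl was 1.66, 1.70, 1.73 and 1.63 in HFHG and 1.18, 1.15, 1.13 and 1.10 in LG, a log2 difference of 0.56 (exact permutation p = 0.0286, adjusted over 16 pairs p = 0.0416). The ratios of Acadvl to Acadm and to Acads differed by 0.49 and 0.59 on the log2 scale with the same p-values and no overlap. In these libraries Acadvl thus differed more between the groups than Acadl, Acadm and Acads did. Because the pairs were chosen after the values were seen, the p-values of all 16 ratios are a description and not a test. Among those 3 enzymes the ratios overlapped between the groups, with log2 differences of -0.06 for Acadl over Acadm, 0.03 for Acadl over Acads and 0.10 for Acadm over Acads (exact permutation p = 0.286, 0.657 and 0.371).

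**Figure D4:**
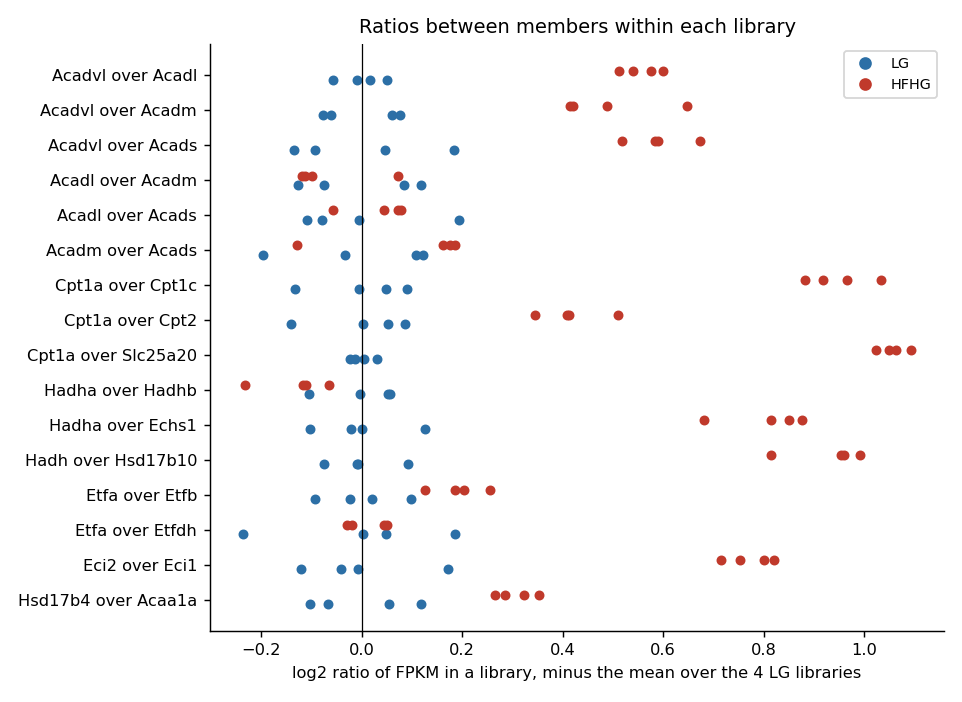
Each row is a ratio of FPKM between 2 genes, and each point is 1 library, placed by its log2 ratio minus the mean over the 4 LG libraries (horizontal axis). The HFHG and LG points separate in 11 of the 16 rows and overlap for the 3 ratios among Acadl, Acadm and Acads, for Hadha over Hadhb and for Etfa over Etfdh.

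In the steps from hydration to thiolysis, the trifunctional protein, the thiolases and Hadh rose, while 2 enzymes of short or branched short chains fell. Of the 7 genes, 5 were higher in HFHG (71.4%) and 2 were lower (28.6%), and none had overlapping groups. Among all genes tested, 34.0% were higher, 30.8% were lower and 59.2% had groups without overlap. Acaa2, a mitochondrial 3-ketoacyl-CoA thiolase, was 35.5, 36.7, 36.4 and 34.1 FPKM in HFHG and 20.8, 16.7, 17.5 and 20.6 FPKM in LG. The groups were well separated, although the LG libraries spread by 2.09 FPKM (SD), and the log2 fold change was 0.92 ± 0.06 (SE, adjusted p = 6.91e-08 by limma).

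Hadha and Hadhb encode the alpha and beta subunits of the mitochondrial trifunctional protein, which carries out the last 3 steps on long chains at the inner membrane. Hadhb (NCBI gene 231086, chr5:30155248-30184593, plus strand) was 16.7, 16.7, 16.5 and 17.1 FPKM in HFHG and 11.3, 10.8, 10.9 and 10.6 FPKM in LG, a log2 fold change of 0.61 ± 0.04 (SE, adjusted p = 1.59e-08 by limma). Hadha (NCBI gene 97212, chr5:30118304-30155162, minus strand) was 49.4 to 54.3 FPKM in HFHG and 35.8 to 38.0 FPKM in LG, a log2 fold change of 0.48 ± 0.03 (SE, adjusted p = 6.52e-08 by limma). Both subunits, which share the interval printed above, rose. The ratio of Hadha to Hadhb overlapped between the groups, with a log2 difference of -0.13 (exact permutation p = 0.0571, adjusted over 16 pairs p = 0.0761). The level of Hadhb cannot be set against that of Hadha, because the length behind its FPKM was 2.25 times its longest annotated coding transcript.

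Hadh, the soluble dehydrogenase of medium and short chains, was 29.1 to 31.1 FPKM in HFHG and 19.6 to 21.5 FPKM in LG, a log2 fold change of 0.56 ± 0.04 (SE). Acat1, which cleaves acetoacetyl-CoA and also acts in isoleucine breakdown and ketone use, was 14.1 to 14.7 FPKM in HFHG and 10.7 to 12.04 FPKM in LG, a log2 fold change of 0.32 ± 0.05 (SE). The genes that fell were the short-chain hydratase Echs1 and Hsd17b10, a dehydrogenase of branched short chains that is also a subunit of mitochondrial RNase P. Echs1 (NCBI gene 93747, chr7:140105710-140116476, minus strand) was 26.3, 28.4, 26.5 and 28.4 FPKM in HFHG and 35.5, 32.1, 34.3 and 35.1 FPKM in LG, a log2 fold change of -0.32 ± 0.04 (SE, adjusted p = 1.82e-05 by limma). Hsd17b10 (NCBI gene 15108, chrX:152001845-152004442, plus strand) was 33.8, 31.7, 31.6 and 33.0 FPKM in HFHG and 42.9, 39.9, 40.4 and 44.3 FPKM in LG, a log2 fold change of -0.36 ± 0.04 (SE, adjusted p = 4.21e-06 by limma). Each LG library was above each HFHG library for both genes. The Echs1 gene overlaps Paox on the other strand over 678 bases, and the strand setting of the counting is not given.

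The ratio of Hadha to Echs1 was 1.74 to 1.99 in HFHG and 1.009 to 1.18 in LG, a log2 difference of 0.81. The ratio of Hadh to Hsd17b10 was 0.859 to 0.971 in HFHG and 0.463 to 0.520 in LG, a log2 difference of 0.93. These ratios are a description, since in both pairs a gene that was higher in each HFHG library was divided by one that was lower in each, and the groups then had to separate.

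Unsaturated chains need isomerases and reductases that move or remove double bonds before the cycle can go on. Of the 4 genes tested, 2 were higher in HFHG and 2 were not called. Eci2, an isomerase of mitochondria and peroxisomes, was 19.1, 20.2, 18.5 and 18.5 FPKM in HFHG and 11.9, 12.2, 11.1 and 11.8 FPKM in LG, a log2 fold change of 0.69 ± 0.04 (SE, adjusted p = 2.02e-08 by limma). Decr1, the mitochondrial dienoyl-CoA reductase, was 18.2, 16.7, 18.2 and 17.2 FPKM in HFHG and 12.8, 15.1, 13.5 and 15.6 FPKM in LG, a log2 fold change of 0.30 ± 0.06 (SE, adjusted p = 7.13e-04 by limma). Both were separated between the groups, as were 59.2% of all genes tested. By contrast, Eci1, the mitochondrial isomerase, was 16.3 to 17.5 FPKM in HFHG and 16.1 to 18.7 FPKM in LG, with a log2 difference of -0.07 ± 0.05 (SE, adjusted p = 0.227 by limma), although without LG replicate 1, its lowest LG library, it was called lower (-0.12, adjusted p = 0.0194). Decr2, the peroxisomal reductase, had a log2 difference of 0.01 ± 0.04 (SE, adjusted p = 0.806 by limma). The ratio of Eci2 to Eci1 was 1.07 to 1.15 in HFHG and 0.599 to 0.735 in LG, a log2 difference of 0.77 (exact permutation p = 0.0286, adjusted over 16 pairs p = 0.0416).

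All 3 genes that pass electrons from the dehydrogenases to ubiquinone were higher in HFHG, beside 34.0% of all genes tested. Etfa, the alpha subunit of the electron transfer flavoprotein, was 11.1, 10.9, 11.2 and 11.2 FPKM in HFHG and 7.39, 7.47, 6.78 and 7.75 FPKM in LG, a log2 fold change of 0.59 ± 0.05 (SE, adjusted p = 3.14e-07 by limma). Etfdh, the membrane enzyme that oxidises the flavoprotein, was 24.3, 22.7, 24.6 and 23.4 FPKM in HFHG and 14.0, 16.1, 17.2 and 16.2 FPKM in LG, a log2 fold change of 0.58 ± 0.06 (SE, adjusted p = 1.38e-06 by limma). Etfb, the beta subunit, was 93.1 to 101 FPKM in HFHG and 69.5 to 78.4 FPKM in LG, a log2 fold change of 0.40 ± 0.04 (SE). The gene model Gm45233, which is not in the table, overlaps Etfb on the same strand over 13673 bases. The groups of each gene stood apart. Etfa changed like Etfdh within the spread (log2 difference of the ratio 0.01, exact permutation p = 0.914) and more than Etfb (0.19, exact permutation p = 0.0286, adjusted over 16 pairs p = 0.0416). The level of Etfa cannot be set against that of Etfb, because the length behind the Etfa values was 9685 bases and its longest annotated coding transcript has 1392 bases.

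The peroxisomal genes of chain shortening numbered 5. Of these, 4 were tested, 3 were higher in HFHG (75.0%, beside 34.0% of all genes tested) and 1 was not called. Hsd17b4, the bifunctional enzyme of very long and branched chains, was 33.7, 33.7, 34.3 and 33.9 FPKM in HFHG and 26.6, 26.2, 28.1 and 26.3 FPKM in LG, a log2 fold change of 0.34 ± 0.03 (SE, adjusted p = 1.02e-06 by limma). Ehhadh, the bifunctional enzyme of the inducible peroxisomal pathway, was 1.63, 1.78, 1.83 and 1.76 FPKM in HFHG and 1.57, 1.40, 1.37 and 1.39 FPKM in LG, a log2 fold change of 0.27 ± 0.09 (SE, adjusted p = 0.0141 by limma). Ehhadh was low, and its groups touched without overlap. Its call was lost after quantile normalization (adjusted p = 0.156) and with voom on recovered reads (adjusted p = 0.0519). Acox3, an oxidase of branched chains, was 7.46 to 7.84 FPKM in HFHG and 5.86 to 6.75 FPKM in LG, a log2 fold change of 0.27 ± 0.05 (SE).

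Acaa1a, a peroxisomal thiolase with a near-identical paralog in Acaa1b, was 36.3 to 38.0 FPKM in HFHG and 34.7 to 38.3 FPKM in LG, with a log2 difference of 0.03 ± 0.04 (SE, adjusted p = 0.470 by limma). The assignment of its reads is uncertain because of the paralog and because Acaa1a overlaps Slc22a14 and Myd88 on the other strand. The ratio of Hsd17b4 to Acaa1a was 0.888 to 0.943 in HFHG and 0.688 to 0.801 in LG, a log2 difference of 0.31 (exact permutation p = 0.0286, adjusted over 16 pairs p = 0.0416). Acox2, the oxidase of bile acid precursors and branched chains, had 4, 5, 0 and 4 reads in HFHG and 0, 6, 2 and 1 reads in LG. At this depth 3 reads correspond to 0.0249 to 0.0271 FPKM, so a difference in Acox2 was not detectable (exact permutation p = 0.6, two-sided).

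Both the breakdown and the synthesis of malonyl-CoA bear on the Cpt1 step. Mlycd (NCBI gene 56690, chr8:119394878-119411102, plus strand), malonyl-CoA decarboxylase, removes the inhibitor. Mlycd was 5.84, 5.61, 5.405 and 6.39 FPKM in HFHG and 4.19, 4.86, 3.50 and 4.18 FPKM in LG. Each HFHG library was above each LG library, and the log2 fold change was 0.47 ± 0.09 (SE, adjusted p = 5.20e-04 by limma). Of the acetyl-CoA carboxylases that make malonyl-CoA, Acaca, the main enzyme of lipid synthesis, was 3.70 to 4.30 FPKM in HFHG and 3.73 to 4.82 FPKM in LG, with a log2 difference of -0.09 and an adjusted p of 0.321 (limma). Acacb, the form at the mitochondrial surface, was much lower in level but rose, with 0.842 to 1.20 FPKM in HFHG and 0.454 to 0.634 FPKM in LG, a log2 fold change of 0.77 ± 0.14 (SE, adjusted p = 4.13e-04 by limma).

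Neighbouring pathways were described by the same rule, by their counts and medians beside those of all genes tested. Of all genes tested, 34.0% were higher and 30.8% were lower, with a median of 0.02. Of 17 tested genes of fatty acid activation and peroxisomal import, 6 were higher (35.3%) and 6 were lower (35.3%), with a median of 0.06. Both shares are near those of all genes tested. In that list Abcd3, a peroxisomal fatty acid importer, had a log2 fold change of 0.37, while the thioesterase Acot2 (-0.82), which has the near-identical paralog Acot1, and the transporter Slc27a1 (-0.69) fell. Of 14 other tested oxidation enzymes, 10 were higher (71.4%) and 4 were lower (28.6%), with a median of 0.26. Hsdl2, a peroxisomal dehydrogenase-like protein, and Ech1, a dienoyl-CoA isomerase, had log2 fold changes of 0.998 and 0.87, the reductase Pecr fell by 0.45 and glutaryl-CoA dehydrogenase Gcdh fell by 0.28 on the log2 scale.

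Of 5 tested ketone body genes, 1 was higher and 3 were lower, with a median of -0.48. Oxct1, the enzyme that lets cells burn ketone bodies, was 31.7 ± 0.342 FPKM in HFHG and 53.6 ± 1.27 FPKM in LG (SD, n = 4), and its log2 fold change was -0.76. Aacs, which uses acetoacetate for lipid synthesis, fell by 0.57 on the log2 scale. Of 6 tested propionyl-CoA genes, 2 were higher (33.3%, beside 34.0% of all genes tested) and 1 was lower (16.7%, beside 30.8%). Mmaa and Mcee rose by 0.49 and 0.31, and Mmut fell by 0.26 on the log2 scale.

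Of the 17 citrate cycle genes, which take up the acetyl-CoA, 7 were higher (41.2%) and 4 were lower (23.5%). Their median was 0.02, so this list as a whole lay at the median of all genes, of which 34.0% were higher and 30.8% lower. Ogdh and Suclg1 rose by 0.47 and 0.36, and Suclg2 and Mdh2 fell by 0.48 and 0.44 on the log2 scale. Of the 17 peroxisome assembly genes, 8 were higher (47.1%) and 1 was lower (5.88%), with a median of 0.10. Pex10 (0.55) and Pex11g (0.53) had the highest log2 fold changes there, and Pex7, the import receptor of Acaa1a-type thiolases, fell by 0.45. The Pex10 groups overlapped, with 2.66 FPKM in LG replicate 4 and 2.59 FPKM in HFHG replicate 2.

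**Figure D5:**
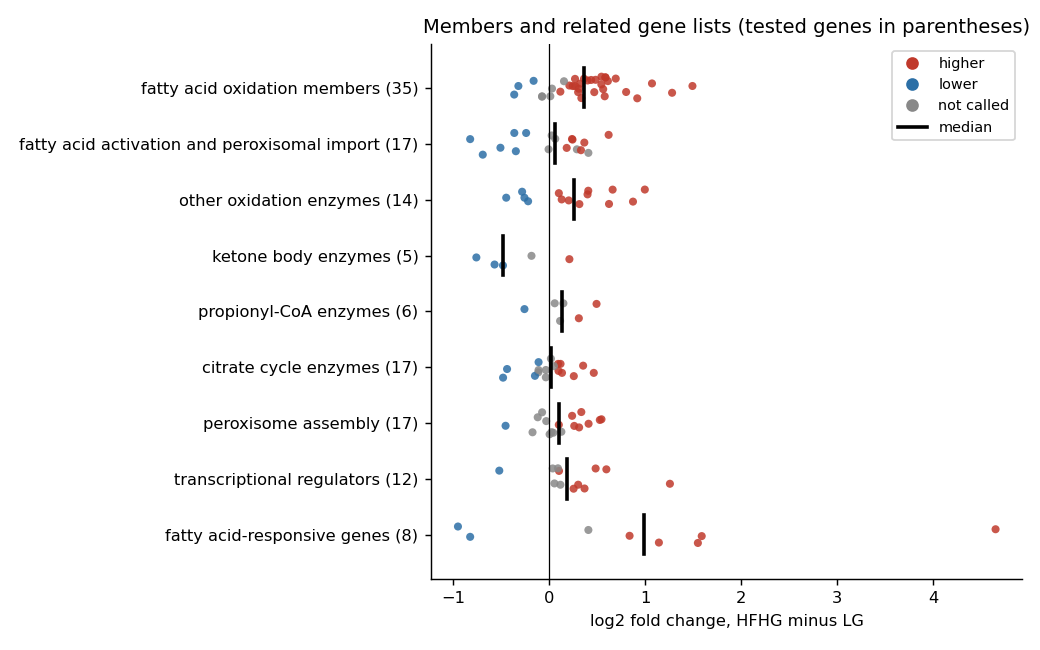
Each point is the log2 fold change (HFHG minus LG, horizontal axis) of 1 tested gene, and the black line is the median of its list. The fatty acid oxidation genes have a median of 0.36, the citrate cycle genes 0.02 and the ketone body genes -0.48, and the point far to the right is Pdk4.

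The receptors known to act on such genes in other tissues were mostly low or little changed, and their action in this culture was not tested. Of 19 regulators, 7 were below the filter, among them Ppara (0.0808 to 0.151 FPKM over the 8 libraries), Pparg (0.166 to 0.403 FPKM) and Ppargc1a (0.0160 to 0.0522 FPKM). Ppard, the PPAR of most tissues, was the member of that family with a clear level, with 25.4 to 27.2 FPKM in HFHG and 23.5 to 25.6 FPKM in LG, and its log2 fold change was 0.10 ± 0.04 (SE, adjusted p = 0.0251 by limma) with overlapping groups. Of the 12 tested regulators, 7 were higher (58.3%, beside 34.0% of all genes tested) and 1 was lower (8.33%, beside 30.8%). Esrra, an orphan receptor of mitochondrial genes, was 23.6 to 27.0 FPKM in HFHG and 15.9 to 16.8 FPKM in LG, a log2 fold change of 0.60. Lpin1, a phosphatidate phosphatase and coactivator, was 6.78 to 7.35 FPKM in HFHG and 2.66 to 3.09 FPKM in LG, a log2 fold change of 1.26. Sirt1, a deacetylase, fell by 0.52 on the log2 scale.

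Genes known to respond to fatty acids, a list that shares Acot2 with the activation list, held 8 tested genes. Among these, 5 were higher (62.5%, beside 34.0% of all genes tested) and 2 were lower (25.0%, beside 30.8%). Pdk4, the kinase that shuts pyruvate dehydrogenase, was 48.5, 49.2, 49.6 and 49.2 FPKM in HFHG and 1.87, 2.04, 1.63 and 1.91 FPKM in LG. This difference, 4.65 ± 0.06 on the log2 scale (SE, adjusted p = 2.25e-14 by limma), was far beyond that of the 35 fatty acid oxidation genes, whose highest value was 1.49. Ucp2, a carrier of the inner membrane, had a log2 fold change of 1.59, and Fabp3, a cytosolic fatty acid carrier, fell by 0.95.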

How the data were processed

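mRNA of 4 HFHG (25.5 mM glucose, 300 µM palmitic acid) and 4 LG (5.5 mM glucose) libraries of TSCs was prepared with a stranded kit. The authors deposited FPKM per gene and library, and the processing notes name HISAT2 2.1.0 and mm10. The counting program, annotation, strand setting and filters are not given in the sources used here. FPKM can be too low where the gene length used exceeds that of the expressed transcript, and this was so by over 1.5 times the longest coding transcript for 6 of the 36 genes (Etfa, Hadhb, Eci2, Crot, Acox3 and Mlycd). Read numbers were recovered as whole multiples for 19301 of 19301 genes (100%, tolerance 0.01 reads).

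log2(FPKM + 0.1) was fitted with limma 3.58.1 (R 4.3.3; lmFit, eBayes with trend) on 11710 genes with at least 0.5 FPKM in at least 4 libraries, HFHG minus LG, without covariates. P-values were adjusted over all genes tested (Benjamini-Hochberg), and the fit was tested on simulated data. The simulated libraries all had the same spread, so the simulation does not cover a library that stands apart, such as LG replicate 4. Genes below the filter and ratios were tested by exact permutation of the libraries (two-sided). All 36 genes could be named. Values per library were given for the Cpt1 isoforms, Mlycd and at least the 2 most changed genes of each role. From the other lists, up to 2 rises and 2 falls with the largest log2 fold change and a fixed set of regulators and enzymes were named, and Fabp4 and the genes given with the cell type markers were named after their values were seen. The genes and lists were chosen with earlier results of these data known. Positions come from GENCODE M21. Alternatives were 2 pseudocounts, 2 filters, 3 scalings, the replicate block, a robust fit, voom on reads and each library left out. No protein sequences were used here, and a few genes that this rule names are not reported here.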

Additional observations from a re-analysis of the deposited data

Results flagged for a closer look

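In groups of 4 libraries, the highest or lowest library lay far from the other 3 by Dixon's test in 7 of 72 groups of the fatty acid oxidation genes, and chance gives about 1 in 20. Of the 7, 3 were in LG replicate 1, which had 12.57 FPKM of Crat (others 12.29 to 12.32), 16.14 FPKM of Eci1 (others 18.52 to 18.73) and 1.569 FPKM of Ehhadh (others 1.369 to 1.40). HFHG replicate 4 had 73.81 FPKM of Acadvl (others 77.03 to 77.68) and 16.25 FPKM of Eci1 (others 17.31 to 17.51). HFHG replicate 2 had 14.21 FPKM of Decr2 (others 12.94 to 13.05), and LG replicate 3 had 20.46 FPKM of Cpt1a (others 20.16 to 20.19). The Cpt1a, Crat and Acadvl values lay far from the other group all the same.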

How the results depend on the processing

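Under 18 alternatives, 28 of the 35 tested genes kept their direction and their call, and 614 of 630 comparisons did. The median log2 fold change of the 35 genes was 0.327 with a pseudocount of 1, 0.423 after rescaling to the same sum and 0.328 with median-ratio scaling. With each library left out in turn it was 0.342 to 0.378, with 26 to 28 genes higher, 3 to 4 lower, 3 more than 2-fold higher and 0 more than 2-fold lower. Uncalled differences changed sign for Acad10 (0.0034 without HFHG replicate 4, and -0.1499 to 0.0034 over all libraries left out), Decr2 (-0.0234 with median-ratio scaling, -0.0184 without HFHG replicate 2, and -0.0184 to 0.0387 over all libraries left out) and Acaa1a (-0.0061 with median-ratio scaling), and the cause was not tested. Acadsb also lost its call with median-ratio scaling (adjusted p = 0.0951), and Acaa1a was called higher after rescaling (adjusted p = 0.0312). The replicate numbers did not pair the libraries (correlations of same-numbered libraries -0.074 to -0.006), and the fit with the replicate block gave 27 higher, 3 lower and a median of 0.364. The 16 ratios, with each library left out (added after seeing the data), moved by less than their spread in 128 of 128 comparisons. Cpt1b and Acox2 are limited by depth, and each error rests on 4 libraries per group.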
